A study of Homo sapiens with 17 samples.

Results

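LNCaP is an androgen-dependent human prostate cancer line, and the experiment described here asked what its transcriptome looked like after a small interfering RNA (siRNA) against FOXA1 was given. The members are every count column that the labels tie to LNCaP cells given siFOXA1 and to LNCaP cells given siControl, the control siRNA. That is 4 RNA-seq libraries, 2 per group, out of 12 libraries in the series, and 2 of the 17 samples deposited. The cells were at passages 32 to 34 and received 40 nM siRNA for 3 days. Stock cultures grew in 10% fetal serum, but both groups were moved to 5% charcoal-stripped serum for the treatment, so siFOXA1 and siControl cells alike were in steroid-depleted medium. The other groups used below for comparison are LNCaP cells given siCREB1, and siFOXA1 and siControl cells of LNCaP-abl (abl), a subline at passages 62 to 64 kept in charcoal-stripped serum. All are cell cultures of 1 line and its subline, and the labels do not say how many siRNA sequences each reagent held. The 2 libraries of a group are numbered columns of 1 deposited sample, and nothing says they came from separate cultures. P-values therefore measure only the spread between libraries of the same sample, which may be technical. That spread is estimated over all 6 groups of the fit, the abl and siCREB1 groups included.

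FOXA1 is a forkhead transcription factor that opens compacted chromatin and lets nuclear receptors reach their sites. In luminal prostate cells it is known for opening the enhancers of prostate genes such as KLK3, which encodes prostate-specific antigen. It is also known to hold some genes down, which come on when it is removed.

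Gene reads numbered 22655155 and 25219041 in the siFOXA1 libraries, against 27555950 and 15200856 in the siControl libraries, within a span of 9092597 to 37314039 over all 12. Values are given as CPM, the count of a gene scaled to the library's total of gene reads after correction by trimmed mean of M-values (TMM). They are not divided by gene length, so levels compare 1 gene across libraries and not 2 genes with each other. Log2 fold changes are siFOXA1 over siControl, tested with edgeR's quasi-likelihood test in a fit of all 12 libraries. The value after ± is an approximate standard error (SE). It is the absolute log2 fold change divided by the square root of that test's F statistic. A gene is called changed where the Benjamini-Hochberg adjusted p over all 15550 genes tested is below 0.05. The library kit does not mark strand, so reads of a gene and of an antisense or overlapping partner cannot be told apart.

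The targeted gene was lower in both siFOXA1 libraries. FOXA1 read 215 and 211 CPM in the siFOXA1 libraries, against 799 and 695 CPM in the siControl libraries. The groups did not overlap, and 28.5% of the siControl level remained, a log2 fold change of -1.81 ± 0.09 (edgeR adjusted p = 2.15e-09). Without 1 library at a time the log2 fold change ran between -1.91 and -1.69. CREB1, which the study targeted in other cultures, was lower too, at 61.4 and 60.7 CPM in the siFOXA1 libraries, against 81 and 85.3 CPM in the siControl libraries, a log2 fold change of -0.44 ± 0.09 (edgeR adjusted p = 0.00126). In bulk RNA, fewer cells of a type and less RNA per cell cannot be told apart, here or below.

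Of the 21 forkhead (FOX) family genes listed, 16 passed the filter on low counts, 2 of them were called higher and 11 lower, with a median log2 fold change of -0.46 against -0.0071 over all genes tested. The list holds FOXA1 itself, so 1 of the 11 lower calls is the targeted gene. The background in this comparison is wide: 49.8% of all genes tested were called, 24.4% higher and 25.5% lower. Every list count of this comparison, here and below, is to be read against these shares. FOXM1, the forkhead factor of dividing cells, read 22.6 and 24.9 CPM in the siFOXA1 libraries, against 54.3 and 52.3 CPM in the siControl libraries. FOXP1, a forkhead factor that represses transcription, read 21.3 and 20 CPM in the siFOXA1 libraries, against 49.1 and 49.6 CPM in the siControl libraries. Both were lower in both siFOXA1 libraries, with log2 fold changes of -1.17 ± 0.10 for FOXM1 and -1.26 ± 0.10 for FOXP1 (edgeR adjusted p = 5.75e-07 and 3.5e-07). FOXO3, a factor restrained by growth signalling, fell as well (-0.47 ± 0.08, edgeR adjusted p = 0.000288), whereas FOXO1 was not called, at 13.9 and 12 CPM in the siFOXA1 libraries, against 14.7 and 17 CPM in the siControl libraries. FOXC1 was the largest rise of the family, at a low level: 1.31 and 1.15 CPM in the siFOXA1 libraries, against 0.361 and 0.192 CPM in the siControl libraries. Its log2 fold change was 2.02 ± 0.45 (edgeR adjusted p = 0.00211) and 2.66 without siControl library 1. FOXQ1 was called lower on 0 and 0 reads in the siFOXA1 libraries, against 6 and 0 reads in the siControl libraries, at least 2.30-fold lower where 3 counts are set as the floor for the siFOXA1 group. It was not called without siControl library 1 or without either siFOXA1 library. FOXA2, the close relative of FOXA1, had no read in any of the 4 libraries.

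Counted over all genes, 3787 rose and 3961 fell. Of these, 802 rose by at least 1 log2 unit, which is 5.16% of genes tested, and 866 fell by as much, which is 5.57%. At an unadjusted p below 0.05 the edgeR test gave 8596 genes. Both siFOXA1 libraries stood above both siControl libraries for 36.4% of genes and below them for 37.1%. The authors' deposited table lists 6778 genes for this contrast, 3364 higher and 3414 lower. Of the 6681 of them tested here, all had the same sign in both sources, and 98.6% were called here. Both sources used edgeR on the same libraries, so the match checks the processing only. A further 1158 genes were called here and not listed by the authors.

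The 12 largest rises among well-measured genes were led by DAPK1, and 10 of the other 11 belong to the interferon system. DAPK1, a calcium-regulated kinase that promotes cell death, read 364 and 345 CPM in the siFOXA1 libraries, against 0.903 and 1.02 CPM in the siControl libraries. The groups were far apart, with a log2 fold change of 8.54 ± 0.16 (edgeR adjusted p = 4.49e-13). GAB3, an adaptor protein of receptor signalling, read 63.7 and 64.4 CPM in the siFOXA1 libraries, against 1.34 and 1.15 CPM in the siControl libraries. It was also far apart between the groups (5.65 ± 0.18, edgeR adjusted p = 6.75e-11). The interferon genes in this set were CXCL11, OAS2, OASL, CXCL10, RSAD2, IFIT3, OAS1, IFI27, IFIT1 and IFIT2, at log2 fold changes between 5.42 for IFIT2 and 7.3 for CXCL11. IFI27, an interferon-induced mitochondrial protein, was 6.96 without siControl library 1, against 5.63 with it, and CXCL10 was 8.05, against 6.42. Each of the 12 was above the siControl libraries in both siFOXA1 libraries, which the rule that picked them required.

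The 12 largest falls included SLC22A10, LOC145837, RLN1, OR51E1, UGT2B11, ACPP, TNFRSF19, RLN2, DDC, DNAH5 and VSTM2L, with log2 fold changes between -7.42 for SLC22A10 and -3.81 for VSTM2L. ACPP, which encodes prostatic acid phosphatase, a classical secretion of luminal prostate cells, read 22.6 and 26.6 CPM in the siFOXA1 libraries, against 500.3 and 514 CPM in the siControl libraries. TNFRSF19, a receptor of the tumour necrosis factor family, read 17.1 and 27.5 CPM in the siFOXA1 libraries, against 439 and 459 CPM in the siControl libraries. Both were abundant in siControl cells and were brought to a small share of that level in both siFOXA1 libraries (-4.36 ± 0.15 and -4.32 ± 0.21, edgeR adjusted p = 1.37e-10 and 3.36e-09). DDC, the decarboxylase that makes dopamine and serotonin, read 25.2 and 31.8 CPM in the siFOXA1 libraries, against 430.4 and 491 CPM in the siControl libraries. SLC22A10, a solute carrier, read 0.0843 and 0.153 CPM in the siFOXA1 libraries, against 18.2 and 25.2 CPM in the siControl libraries. RLN1 and RLN2, the relaxin hormones, had log2 fold changes of -4.92 and -4.2, but their sequences are so alike that the authors' counting could have split reads between them. LOC145837 had 0.211 and 0.956 CPM in the siFOXA1 libraries, against 17.2 and 22.3 CPM in the siControl libraries; its log2 fold change of -5.01 became -6.48 without siFOXA1 library 2 and -4.32 without siFOXA1 library 1.

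**Figure D1:**
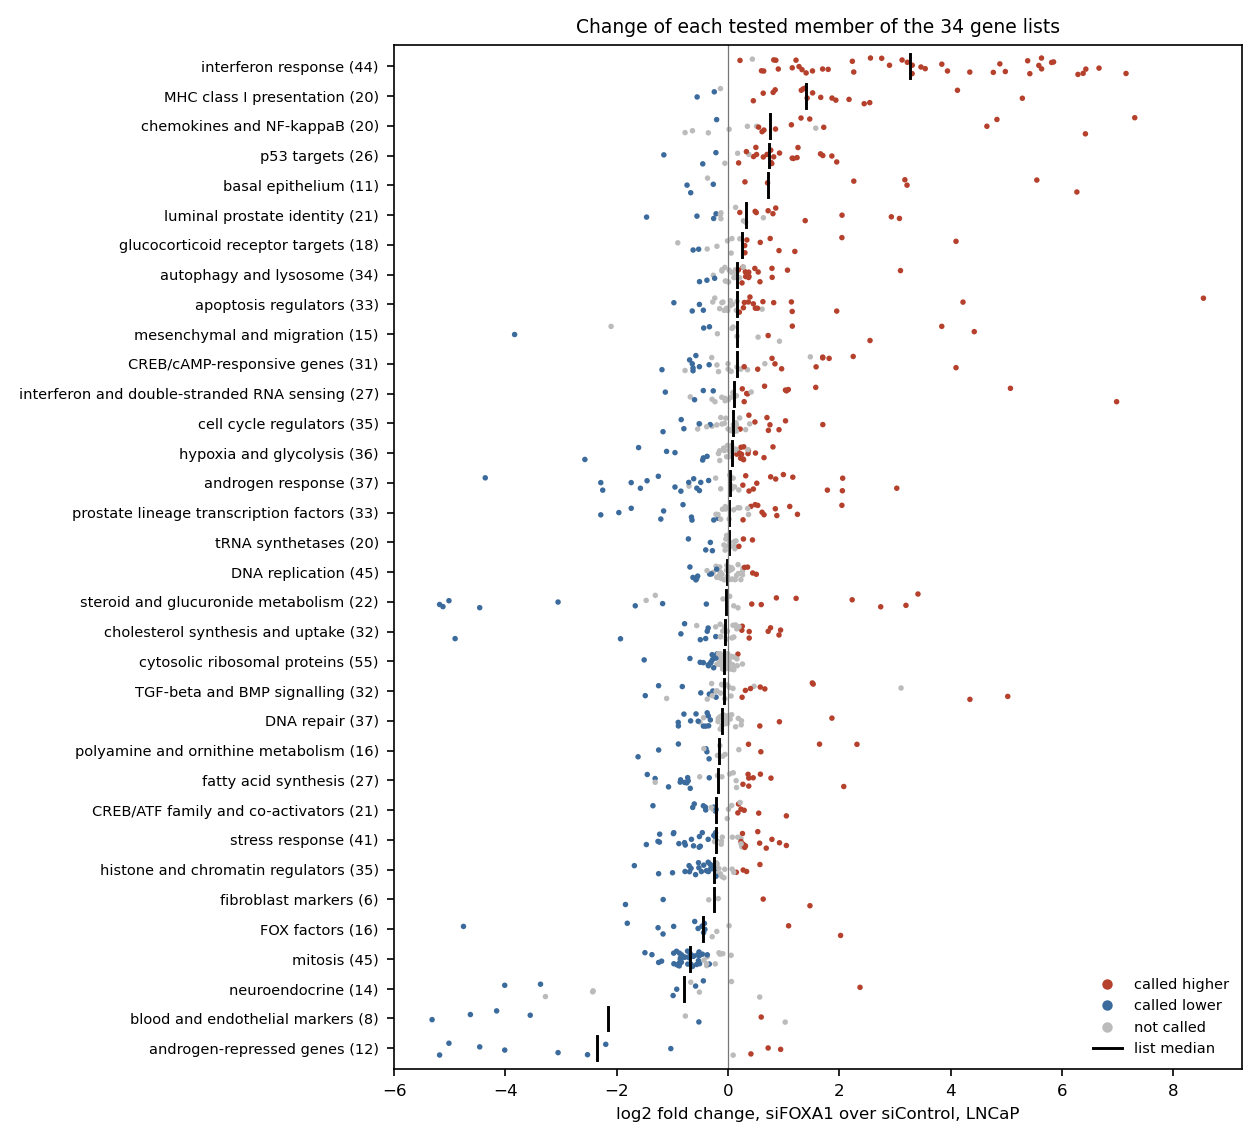
Log2 fold change, siFOXA1 over siControl in LNCaP, for each tested member of the 34 gene lists (number tested in brackets), red where called higher, blue where called lower and grey where not called; black bars are list medians. The interferon response list lies farthest to the right with a median of 3.26, the mitosis list holds no red point, and the extreme points of the FOX and blood lists are genes with few or no reads in 1 group, whose fitted size depends on the prior count.

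Interferons are signalling proteins released when a cell senses foreign or misplaced nucleic acid. Sensors such as DDX58 (RIG-I), IFIH1 (MDA5) and TLR3 start the production of type I and type III interferon, which acts through receptors, the kinases JAK1 and TYK2, and a transcription factor complex that includes STAT2 and IRF9, to switch on a large set of antiviral genes. Of the 44 interferon response genes listed, all of which passed the filter, 43 were called higher and none lower, with a median log2 fold change of 3.26 against -0.0071 over all genes. Their summed level was 4170 and 4166 CPM in the siFOXA1 libraries, against 712.3 and 663.9 CPM in the siControl libraries. The exception, EPSTI1, was near the floor, at 0.337 and 0.115 CPM in the siFOXA1 libraries, against 0.144 and 0.192 CPM in the siControl libraries.

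Interferon genes themselves were detected mainly in siFOXA1 cells. IFNB1, the type I interferon of non-immune cells, had 12 and 21 reads in the siFOXA1 libraries and none in either siControl library, at least 9.55-fold higher where 3 counts are set as the floor for the siControl group. IL29, a type III interferon (interferon lambda), read 3.37 and 3.17 CPM in the siFOXA1 libraries, against 0.108 and 0.064 CPM in the siControl libraries. No test of IL29 is given, for the reason stated below. Among the sensors, DDX58 read 103 and 107 CPM in the siFOXA1 libraries, against 21.2 and 23.1 CPM in the siControl libraries. IFIH1 read 42.1 and 40.6 CPM in the siFOXA1 libraries, against 8.05 and 5.57 CPM in the siControl libraries. TLR3, which senses double-stranded RNA in endosomes, read 8.6 and 8.14 CPM in the siFOXA1 libraries, against 2.67 and 3.01 CPM in the siControl libraries. All 3 sensors were higher in both siFOXA1 libraries, with log2 fold changes of 2.26 ± 0.12 for DDX58, 2.56 ± 0.14 for IFIH1 and 1.57 ± 0.19 for TLR3 (edgeR adjusted p = 8.81e-09, 7.25e-09 and 1.23e-05). The wider list of interferon signalling and double-stranded RNA sensing, 27 genes tested, held 11 higher and 4 lower, with a median of 0.11. IFNB1 and IL29 passed the low-count filter only through the siFOXA1 group, where they were high. Nothing is therefore read from a test of either gene, from the count of higher genes or from the median of that list. JAK2, a receptor kinase of that list, was among those lower, at 21 and 22.2 CPM in the siFOXA1 libraries, against 51.3 and 42.5 CPM in the siControl libraries (-1.13 ± 0.10, edgeR adjusted p = 4.97e-07).

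The transcription factors of the pathway described here rose, by less than the median of the response list. IRF9 read 91.3 and 95.6 CPM in the siFOXA1 libraries, against 12.6 and 12.4 CPM in the siControl libraries. IRF7, which amplifies interferon production, read 64.7 and 61.8 CPM in the siFOXA1 libraries, against 20.6 and 15.1 CPM in the siControl libraries. The groups were apart for both, with log2 fold changes of 2.9 ± 0.11 for IRF9 and 1.8 ± 0.11 for IRF7 (edgeR adjusted p = 3.48e-10 and 3.12e-08). STAT2 changed little, at 121 and 123 CPM in the siFOXA1 libraries, against 97.1 and 114 CPM in the siControl libraries (0.21 ± 0.08, edgeR adjusted p = 0.0454), and lost its call without siFOXA1 library 1, without siFOXA1 library 2 or without siControl library 1. DDX58, IFIH1, STAT2, IRF7, IRF9, EPSTI1 and ISG15 were chosen after their values were seen.

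The antiviral effectors were well measured in siFOXA1 cells, against low levels in siControl cells. OAS2, a synthetase that activates the RNA-degrading enzyme RNase L, read 44.9 and 49.6 CPM in the siFOXA1 libraries, against 0.505 and 0.384 CPM in the siControl libraries. RSAD2 (viperin), which blocks viral replication, read 102 and 90.3 CPM in the siFOXA1 libraries, against 1.23 and 1.02 CPM in the siControl libraries. IFIT1, which binds viral RNA ends, read 200.1 and 201 CPM in the siFOXA1 libraries, against 5.02 and 2.88 CPM in the siControl libraries. None of the 3 overlapped between groups, with log2 fold changes of 6.66 ± 0.38, 6.38 ± 0.53 and 5.58 ± 0.33 (edgeR adjusted p = 1.39e-08, 4.18e-07 and 1.58e-08). OASL read 216 and 217 CPM in the siFOXA1 libraries, against 2.64 and 2.31 CPM in the siControl libraries, and IFIT2 read 314 and 296 CPM in the siFOXA1 libraries, against 7.26 and 6.92 CPM in the siControl libraries. ISG15, a ubiquitin-like modifier, was already expressed in siControl cells, at 594 and 578 CPM in the siFOXA1 libraries, against 63.8 and 41 CPM in the siControl libraries (3.46 ± 0.24, edgeR adjusted p = 7.58e-08). GBP1, a guanylate-binding protein, had 220 and 141 reads in the siFOXA1 libraries, against 1 read in each siControl library, a ratio of 157 with a 95% counting interval of 43.1 to 1300.

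CXCL10 and CXCL11, chemokines that attract T cells, and CCL5, which attracts T cells and monocytes, were all higher in both siFOXA1 libraries. CXCL11 read 23.8 and 21.8 CPM in the siFOXA1 libraries, against 0.108 and 0.192 CPM in the siControl libraries. CCL5 read 39.2 and 34 CPM in the siFOXA1 libraries, against 1.48 and 1.41 CPM in the siControl libraries, a log2 fold change of 4.65 ± 0.30 (edgeR adjusted p = 3.99e-08). For CXCL10 the log2 fold change was 6.42 ± 0.38 (edgeR adjusted p = 1.92e-08), and 8.05 without siControl library 1. Of the 20 chemokine and NF-kappaB genes tested, 12 were higher and 1 lower (none without siFOXA1 library 1), with a median of 0.75. IL1B, the inflammatory cytokine, read 4.38 and 5.05 CPM in the siFOXA1 libraries, against 0.217 and 0.064 CPM in the siControl libraries, a log2 fold change of 4.83 ± 0.39 (edgeR adjusted p = 3.03e-07) that was 6.11 without siControl library 1.

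MHC class I presentation, by which cells show peptide fragments to T cells, had 17 of 20 tested genes higher and 2 lower, with a median of 1.4. The 17 include HLA-G, which passed the low-count filter only through the siFOXA1 group, where it was high. Its call adds nothing to that count. PSMB9, a subunit of the immunoproteasome that cuts the peptides, read 6.58 and 6.58 CPM in the siFOXA1 libraries, against 0.253 and 0.576 CPM in the siControl libraries. NLRC5, the transcriptional activator of class I genes, read 49.6 and 49.4 CPM in the siFOXA1 libraries, against 7.62 and 9.67 CPM in the siControl libraries. B2M, the light chain shared by class I molecules, read 794 and 632 CPM in the siFOXA1 libraries, against 232 and 217 CPM in the siControl libraries. In each case both siFOXA1 libraries were above siControl (4.12 ± 0.39, 2.54 ± 0.17 and 1.66 ± 0.16, edgeR adjusted p = 1.53e-06, 4.9e-08 and 1.96e-06). PSMB9 was 3.52 without siControl library 1. HLA-G had 9.06 and 0.497 CPM in the siFOXA1 libraries, against 0.108 and 0.128 CPM in the siControl libraries. Its log2 fold change of 5.29 rested on siFOXA1 library 1, without which it was 2.08, and reads of the near-identical HLA genes could have been shared among them. B2M was chosen after its values were seen.

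**Figure D2:**
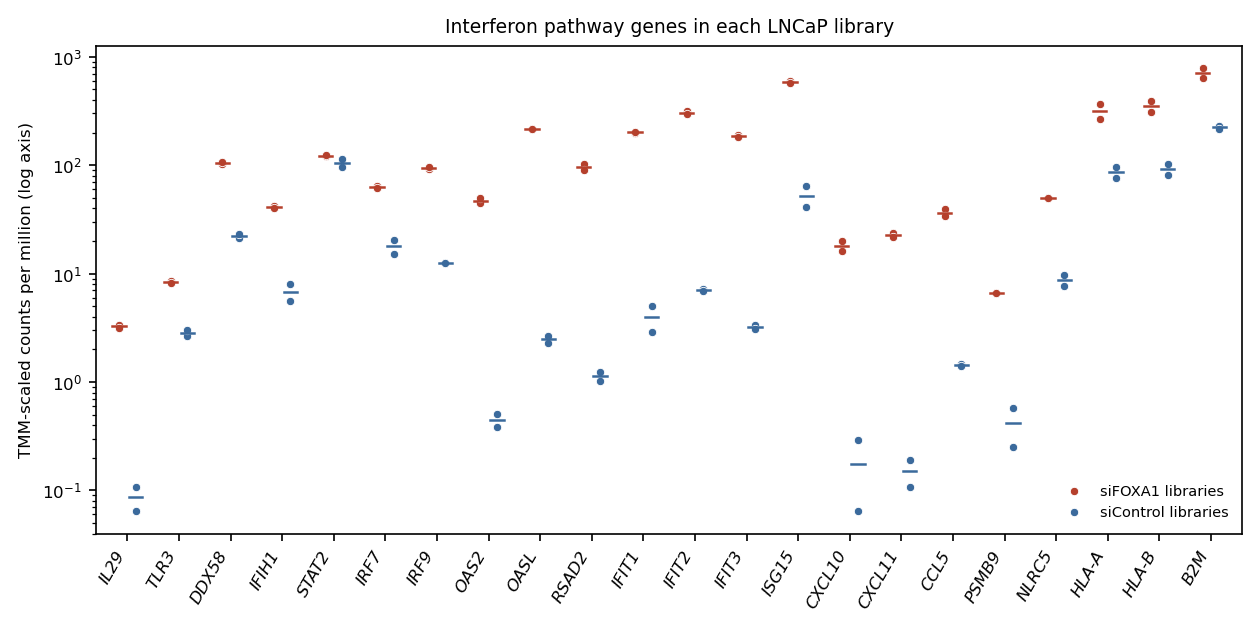
TMM-scaled CPM (log axis) of interferon pathway genes in each LNCaP library, red for siFOXA1 and blue for siControl, with bars at the group means; IL29 is an interferon, TLR3 to IFIH1 are sensors, STAT2 to IRF9 transcription factors, and the others effectors, chemokines and antigen presentation genes. The 2 red points lie above the 2 blue points for every gene shown, most narrowly for STAT2 at 121 and 123 CPM under siFOXA1 against 97.1 and 114 CPM under siControl.

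Promoters of these genes are shown because interferon-responsive promoters carry a short element bound by interferon-activated transcription factors. The RefSeq promoter table (GRCh38.p14) was searched in the 250 bases before the first start listed for each gene, on both strands, for the core AAANNGAAA of the interferon-stimulated response element. It stood in 9.28% of all 27305 promoters listed there. These include genes not tested here, so this share and those of the other motifs below are not a like background for a list. Of the 44 interferon response genes 34 matched a promoter, too few for a share of the list to be read, and 25 of these 34 held the core. The 2 called members with the largest changes that held it were GBP1, at chr1:89065209-89065458 on the minus strand, and IFI44L, at chr1:78620198-78620447 on the plus strand. Capitals mark the core, which appears in GBP1 as its reverse complement. IFI44L read 12.2 and 13.8 CPM in the siFOXA1 libraries, against 0.144 and 0.192 CPM in the siControl libraries, and its promoter held the core at 2 places.
GBP1: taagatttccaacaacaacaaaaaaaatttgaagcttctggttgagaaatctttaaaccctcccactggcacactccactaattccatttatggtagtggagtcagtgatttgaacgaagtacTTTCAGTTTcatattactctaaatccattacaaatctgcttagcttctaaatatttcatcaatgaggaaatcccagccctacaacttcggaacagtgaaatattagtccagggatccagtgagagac
IFI44L: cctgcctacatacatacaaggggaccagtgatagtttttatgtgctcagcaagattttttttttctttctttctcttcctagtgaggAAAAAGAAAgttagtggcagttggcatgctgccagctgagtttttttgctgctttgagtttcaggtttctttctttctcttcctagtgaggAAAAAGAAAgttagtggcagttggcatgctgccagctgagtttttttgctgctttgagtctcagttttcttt
The forkhead motif TGTTTAC stood in 2.98% of all promoters in the table, in 2 of the 34 matched interferon promoters, in 1 of 38 matched mitosis promoters and in none of 37 matched stress response promoters. A match is a description of the letters only, and these windows do not cover enhancers.

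Prostate identity genes moved in both directions. Of 33 prostate lineage transcription factors tested, 11 were higher and 10 lower, with a median of 0.0181, close to the -0.0071 over all genes. SPDEF, an ETS factor of luminal and secretory epithelium, read 15.9 and 17.5 CPM in the siFOXA1 libraries, against 88.8 and 73.7 CPM in the siControl libraries. TLE3, a co-repressor that works with forkhead factors, read 99.6 and 114 CPM in the siFOXA1 libraries, against 449 and 381 CPM in the siControl libraries. Both were at a fraction of their siControl level in both siFOXA1 libraries (-2.29 ± 0.13 and -1.96 ± 0.10, edgeR adjusted p = 1.3e-08 and 3.75e-09). GATA2, a partner of FOXA1 at enhancers, was higher, at 459 and 450 CPM in the siFOXA1 libraries, against 300 and 281 CPM in the siControl libraries (0.65 ± 0.07, edgeR adjusted p = 2.58e-06). HOXB13, another such partner, overlapped between groups at 754 and 778 CPM in the siFOXA1 libraries, against 836 and 749.6 CPM in the siControl libraries.

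Androgen response genes did not move as 1 group: 13 of 37 were higher and 15 lower, with a median of 0.0294. KLK3 read 61.8 and 87.4 CPM in the siFOXA1 libraries, against 70.5 and 73.9 CPM in the siControl libraries. TMPRSS2, a serine protease gene under androgen control, read 66.9 and 71.7 CPM in the siFOXA1 libraries, against 76.7 and 75.3 CPM in the siControl libraries. FKBP5, a chaperone of steroid receptors, read 48.1 and 51.6 CPM in the siFOXA1 libraries, against 43.9 and 51.8 CPM in the siControl libraries. None of the 3 was called, and the groups overlapped for KLK3 and FKBP5. KLK2, the neighbouring kallikrein, was higher, at 5.31 and 6.27 CPM in the siFOXA1 libraries, against 1.62 and 1.02 CPM in the siControl libraries (2.06 ± 0.26, edgeR adjusted p = 2.1e-05). TRPM8, a cold-sensing ion channel of prostate epithelium, was also higher, at 9.78 and 9.56 CPM in the siFOXA1 libraries, against 1.16 and 1.22 CPM in the siControl libraries (3.03 ± 0.20, edgeR adjusted p = 4.93e-08). ACPP above, SPDEF and RAB3B were the lowest of the list. RAB3B, a small GTPase of vesicle release, read 14.9 and 17.4 CPM in the siFOXA1 libraries, against 83.7 and 69.8 CPM in the siControl libraries (-2.25 ± 0.12, edgeR adjusted p = 7.2e-09).

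Of the androgen-repressed genes, which are high where androgen is low, 8 of 12 were lower and 3 higher, with a median of -2.36 against -0.0071 over all genes. The UGT2B enzymes, which attach glucuronic acid to androgens and so clear them, held the largest falls of the list. UGT2B15 read 30.1 and 28.7 CPM in the siFOXA1 libraries, against 250 and 238 CPM in the siControl libraries. UGT2B11 read 0.59 and 0.879 CPM in the siFOXA1 libraries, against 16.5 and 16.3 CPM in the siControl libraries. UGT2B17 read 0.0843 and 0.115 CPM in the siFOXA1 libraries, against 3.5 and 3.27 CPM in the siControl libraries. The groups were far apart for all 3 (-3.05 ± 0.19, -4.46 ± 0.23 and -5.01 ± 0.95, edgeR adjusted p = 2.24e-08, 5.5e-09 and 0.000647). UGT2B28 had 0 and 2 reads in the siFOXA1 libraries, against 40 and 30 reads in the siControl libraries, a ratio of 0.0248 with a 95% counting interval of 0.00295 to 0.093. These genes are near-identical copies, so reads may have been split among them. In the list of steroid and glucuronide metabolism 8 of 22 genes were higher and 8 lower, the higher count being 5 with DESeq2. AKR1C3, an enzyme that makes testosterone from androstenedione and has close paralogs, rose, at 9.53 and 7.23 CPM in the siFOXA1 libraries, against 1.19 and 0.448 CPM in the siControl libraries. Its log2 fold change of 3.19 ± 0.30 (edgeR adjusted p = 1.15e-06) was 4.23 without siControl library 1. UGT2B15 and AKR1C3 were chosen after their values were seen.

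**Figure D3:**
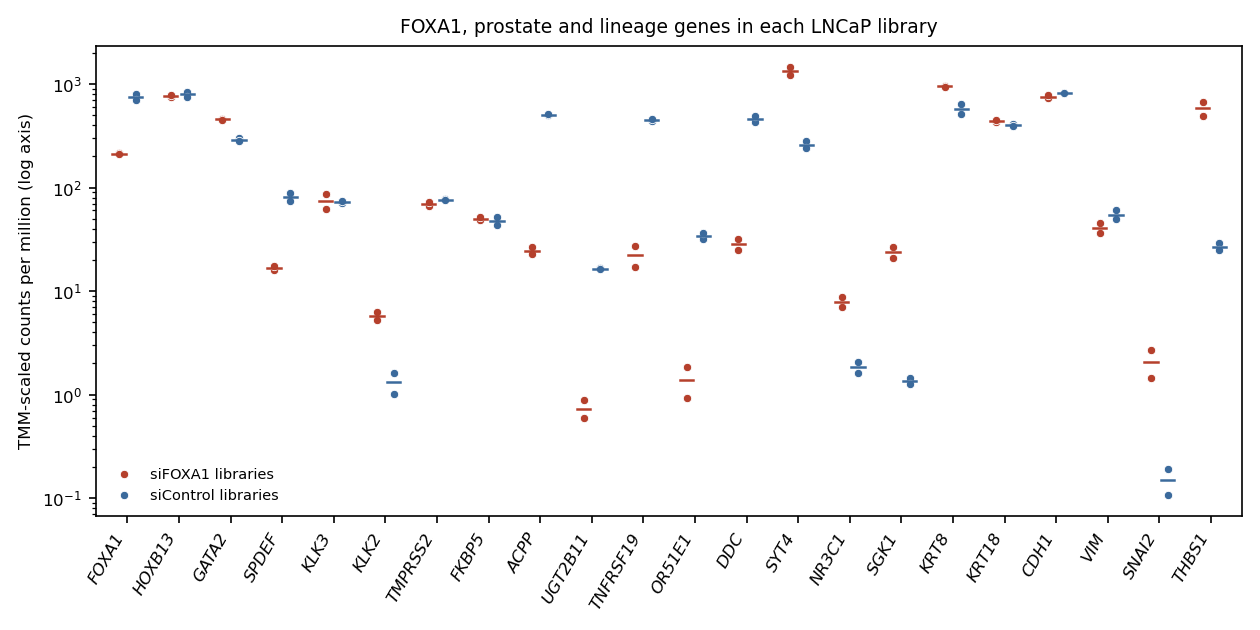
TMM-scaled CPM (log axis) of FOXA1, prostate and lineage genes in each LNCaP library, red for siFOXA1 and blue for siControl, with bars at the group means. ACPP, UGT2B11, TNFRSF19, OR51E1 and DDC lie at a small fraction of their siControl level, while KLK3, TMPRSS2, FKBP5 and HOXB13 were not called; THBS1, SGK1 and SYT4 lie well above it.

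The glucocorticoid receptor NR3C1, a steroid-activated transcription factor, read 8.68 and 6.96 CPM in the siFOXA1 libraries, against 2.06 and 1.6 CPM in the siControl libraries. Both siFOXA1 libraries were higher, a log2 fold change of 2.04 ± 0.18 (edgeR adjusted p = 9.39e-07). SGK1, a kinase induced by glucocorticoids, read 26.6 and 20.8 CPM in the siFOXA1 libraries, against 1.44 and 1.28 CPM in the siControl libraries (4.09 ± 0.27, edgeR adjusted p = 5.15e-08). MT2A, a metallothionein that glucocorticoids and metals induce, read 66.1 and 63.3 CPM in the siFOXA1 libraries, against 29.4 and 26.7 CPM in the siControl libraries (1.2 ± 0.08, edgeR adjusted p = 3.67e-08). In the list of 18 genes made of the receptor itself and its targets 9 were higher, NR3C1 among them, and 2 lower, with a median of 0.25. Another 7 were not called, among them FKBP5, whose levels are given above.

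Of 21 luminal genes tested 10 were higher and 4 lower, with a median of 0.32. KRT8, a luminal keratin, read 961 and 939 CPM in the siFOXA1 libraries, against 636 and 518 CPM in the siControl libraries (0.72 ± 0.09, edgeR adjusted p = 1.66e-05), and its partner KRT18 was not called, at 429 and 449 CPM in the siFOXA1 libraries, against 408 and 392 CPM in the siControl libraries. CDH1, the epithelial cadherin, was not called either, at 728 and 777 CPM in the siFOXA1 libraries, against 819.9 and 826 CPM in the siControl libraries. CD24, a surface glycoprotein of luminal cells, was lower, at 32.5 and 26.6 CPM in the siFOXA1 libraries, against 78.5 and 84.5 CPM in the siControl libraries (-1.46 ± 0.13, edgeR adjusted p = 6.03e-07). The basal list passed the low-count filter unevenly: KRT14, at 24 and 20 reads in the siFOXA1 libraries against 1 and 3 reads in the siControl libraries, and KRT17 passed it only through the siFOXA1 group, where they were high, so nothing is read from a count or the median of the list. COL17A1, a collagen of the anchoring junctions of basal cells, read 14.2 and 10.1 CPM in the siFOXA1 libraries, against 0.253 and 0.256 CPM in the siControl libraries (5.55 ± 0.28, edgeR adjusted p = 4.33e-09). KRT17 had 58 and 50 reads in the siFOXA1 libraries, against 1 and 0 reads in the siControl libraries, a ratio of 93.8 with a 95% counting interval of 16.5 to 3740; it shares sequence with KRT14. The defining basal factor TP63 had no read in any of the 4 libraries, and KRT5 had 2 and 1 reads in the siFOXA1 libraries and none in siControl. The summed basal level was 309.9 and 307.2 CPM in the siFOXA1 libraries, against 372.3 and 309.1 CPM in the siControl libraries.

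Of the mesenchymal and migration genes tested, 5 of 15 were higher and 3 lower, with a median of 0.16. THBS1, a matrix glycoprotein (thrombospondin) that activates latent TGF-beta, read 672 and 488 CPM in the siFOXA1 libraries, against 28.8 and 24.9 CPM in the siControl libraries. It was far above siControl in both siFOXA1 libraries, a log2 fold change of 4.42 ± 0.15 (edgeR adjusted p = 1.25e-10). SNAI2 (Slug), a repressor of epithelial genes, was higher at a low level, 2.7 and 1.45 CPM in the siFOXA1 libraries, against 0.108 and 0.192 CPM in the siControl libraries (3.84 ± 0.54, edgeR adjusted p = 5.19e-05). LOX, which cross-links collagen, was lower, at 0.0843 and 0.153 CPM in the siFOXA1 libraries, against 1.55 and 2.11 CPM in the siControl libraries (-3.84 ± 0.45, edgeR adjusted p = 9.67e-06). VIM, the mesenchymal filament vimentin, read 45.4 and 36.1 CPM in the siFOXA1 libraries, against 60.2 and 49.5 CPM in the siControl libraries. Its log2 fold change of -0.44 ± 0.16 (edgeR adjusted p = 0.0352) lost its call without siFOXA1 library 2 or without siControl library 1, where it was -0.26 both times. Of 32 TGF-beta and BMP signalling genes, 9 were higher and 7 lower, the lower count moving between 4 and 11 as 1 library was left out. These shares, 28.1% and 21.9%, are near the 24.4% and 25.5% over all genes. TGFB3, a TGF-beta ligand, read 2.78 and 1.91 CPM in the siFOXA1 libraries, against 0.83 and 0.769 CPM in the siControl libraries (1.53 ± 0.38, edgeR adjusted p = 0.00429). ID3, a target of BMP signalling, had 51.9 and 22.9 CPM in the siFOXA1 libraries, against 2.27 and 1.09 CPM in the siControl libraries. Its log2 fold change of 4.34 ± 0.55 (edgeR adjusted p = 2.15e-05) was 3.66 without siFOXA1 library 1 and 5.11 without siControl library 1.

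Neuroendocrine genes were split by gene. Of 14 tested, 1 was higher and 6 lower, with a median of -0.80, or -0.48 where members with no read in 1 group stand at their bound. SYT4, a synaptotagmin of secretory vesicles, was the member that rose, at 1461 and 1228 CPM in the siFOXA1 libraries, against 281 and 238 CPM in the siControl libraries (2.37 ± 0.10, edgeR adjusted p = 5.67e-10). TUBB3, a neuronal tubulin, fell, at 38.1 and 41.3 CPM in the siFOXA1 libraries, against 88.9 and 67.9 CPM in the siControl libraries (-0.99 ± 0.12, edgeR adjusted p = 1.91e-05), as did DDC above. CHGA had 1 and 1 reads in the siFOXA1 libraries and 1 and 0 in siControl, and INSM1 had none.

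Most mitosis genes were lower, and most DNA replication genes were not called. Mitosis proteins build the spindle and kinetochores and separate the chromosomes, and their genes are switched on late in the cell cycle. Of 45 mitosis genes tested none was higher and 36 were lower, with a median of -0.68 against -0.0071 over all genes. Their summed level was 619 and 637.1 CPM in the siFOXA1 libraries, against 973.9 and 929.8 CPM in the siControl libraries. CENPF, a kinetochore protein, read 16.7 and 17.6 CPM in the siFOXA1 libraries, against 53.2 and 43 CPM in the siControl libraries. CENPE, a kinetochore motor, read 5.82 and 6.73 CPM in the siFOXA1 libraries, against 16.2 and 16.3 CPM in the siControl libraries. Outside the list, MKI67, which encodes the proliferation antigen Ki-67, read 10.8 and 15.9 CPM in the siFOXA1 libraries, against 44.7 and 35.2 CPM in the siControl libraries. Each was below siControl in both siFOXA1 libraries (-1.49 ± 0.15, -1.37 ± 0.13 and -1.58 ± 0.19, edgeR adjusted p = 2.41e-06, 1.98e-06 and 1.39e-05). AURKB, the kinase that corrects chromosome attachments, was among the 9 not called, at 3.67 and 4.21 CPM in the siFOXA1 libraries, against 4.84 and 5.51 CPM in the siControl libraries.

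Of 45 DNA replication genes, 4 were higher and 8 lower, with a median of -0.0243, the lower count being 4 without siFOXA1 library 1 and 5 without siControl library 1. MCM2, a subunit of the replicative helicase, was not called, at 49.8 and 53.4 CPM in the siFOXA1 libraries, against 59.4 and 55 CPM in the siControl libraries. TK1, a thymidine kinase of S phase, was lower, at 23.4 and 22.9 CPM in the siFOXA1 libraries, against 38.6 and 35.7 CPM in the siControl libraries (-0.69 ± 0.12, edgeR adjusted p = 0.000407). In DNA repair 3 of 37 genes were higher and 12 lower, with a median of -0.11. BRCA1 and BRCA2, which act in homologous recombination, both fell (-0.89 ± 0.18 and -0.9 ± 0.19, edgeR adjusted p = 0.00109 and 0.00121), and RAD54B, a recombination helicase, rose, at 22.6 and 22.3 CPM in the siFOXA1 libraries, against 5.81 and 6.66 CPM in the siControl libraries (1.86 ± 0.13, edgeR adjusted p = 7.58e-08).

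Cell cycle regulators were mostly uncalled, with 9 of 35 higher and 5 lower and a median of 0.0948; the lower count was 3 without siFOXA1 library 1 or without siControl library 1. CCND1, the cyclin of the early cell cycle, read 299 and 314 CPM in the siFOXA1 libraries, against 316 and 298 CPM in the siControl libraries. MYC, the growth-promoting factor, read 84.8 and 110.5 CPM in the siFOXA1 libraries, against 95.3 and 81.5 CPM in the siControl libraries. CDKN1B, the inhibitor p27, read 105 and 107 CPM in the siFOXA1 libraries, against 106 and 94.1 CPM in the siControl libraries. The groups overlapped for all 3 and none was called. The inhibitor p21, CDKN1A, was higher, at 425 and 403 CPM in the siFOXA1 libraries, against 133 and 122 CPM in the siControl libraries (1.7 ± 0.26, edgeR adjusted p = 0.000101). CDKN2B, the inhibitor p15, was higher as well, at 13.8 and 12.5 CPM in the siFOXA1 libraries, against 6.07 and 6.92 CPM in the siControl libraries (1.03 ± 0.13, edgeR adjusted p = 1.73e-05).

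CDKN1A is a target of p53, the factor that answers DNA damage and other stress, and 20 of 26 p53 targets were higher and 3 lower, with a median of 0.73. PMAIP1 (NOXA), which opposes survival proteins at mitochondria, read 16.5 and 15 CPM in the siFOXA1 libraries, against 3.86 and 4.36 CPM in the siControl libraries. FAS, a death receptor, read 15.3 and 15.5 CPM in the siFOXA1 libraries, against 3.54 and 5.25 CPM in the siControl libraries. GADD45A, a growth arrest gene, read 36.4 and 30.6 CPM in the siFOXA1 libraries, against 11 and 10.1 CPM in the siControl libraries. The siFOXA1 libraries were above siControl for all 3 (1.95 ± 0.18, 1.86 ± 0.16 and 1.66 ± 0.16, edgeR adjusted p = 9.73e-07, 7.4e-07 and 1.66e-06). MDM2, which degrades p53, was higher by less, at 216 and 219 CPM in the siFOXA1 libraries, against 155 and 153 CPM in the siControl libraries (0.5 ± 0.09, edgeR adjusted p = 0.000305). Of 33 apoptosis regulators, 15 were higher and 4 lower (2 without siControl library 1), with a median of 0.16. TNFSF10 (TRAIL), a death ligand that interferon also induces, read 14.2 and 12.6 CPM in the siFOXA1 libraries, against 0.722 and 0.705 CPM in the siControl libraries (4.22 ± 0.26, edgeR adjusted p = 2.27e-08). MDM2, MCM2 and AURKB were chosen after their values were seen.

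**Figure D4:**
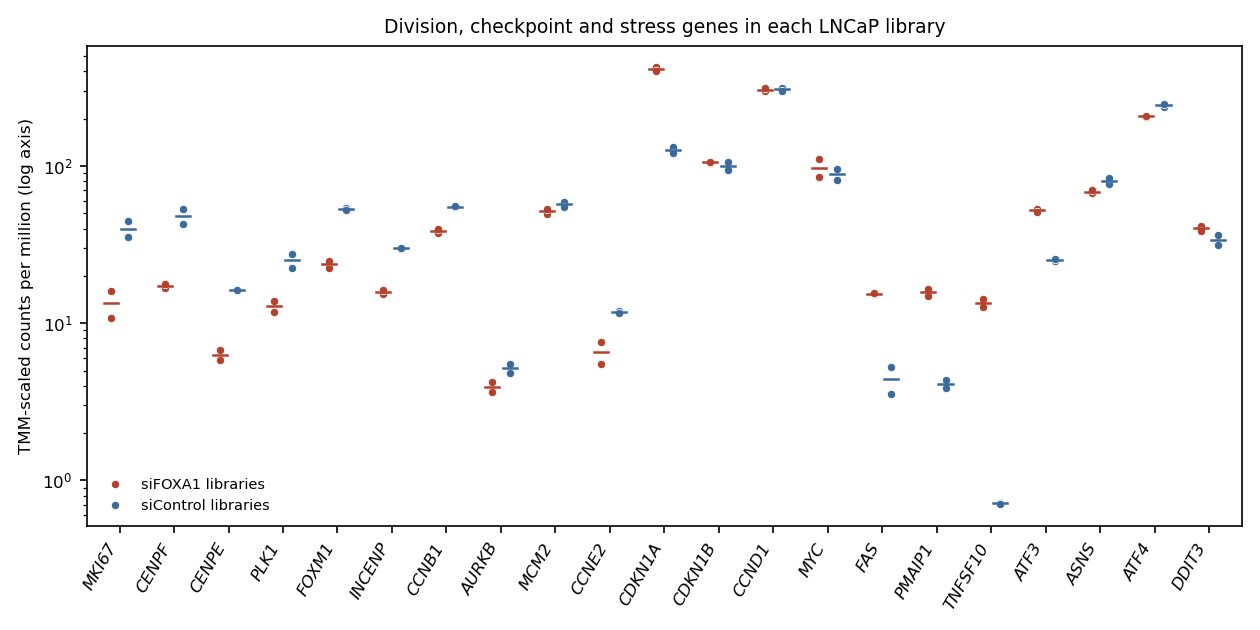
TMM-scaled CPM (log axis) of division, checkpoint, death and stress genes in each LNCaP library, red for siFOXA1 and blue for siControl, with bars at the group means. MKI67 to INCENP lie below siControl in both siFOXA1 libraries, CCND1, MYC and CDKN1B overlap, and CDKN1A, FAS, PMAIP1, TNFSF10 and ATF3 lie above.

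Promoters of mitosis genes are shown because many carry the cell cycle homology region, TTTGAA or TTCGAA, near the start, often beside CCAAT boxes. Either form, on either strand, stood in 14.6% of all promoters listed, and CCAAT in 33.0%. Of 45 mitosis genes 38 matched a promoter, and 19 of these held the region and 29 held CCAAT. As for the interferon promoters, no share of the list is read. The 2 called members with the largest changes that held the region were PLK1, a mitotic kinase, and INCENP, a scaffold of the Aurora B complex. PLK1 read 11.8 and 13.8 CPM in the siFOXA1 libraries, against 27.6 and 22.6 CPM in the siControl libraries, and INCENP read 15.3 and 16.4 CPM in the siFOXA1 libraries, against 29.8 and 30.2 CPM in the siControl libraries (-0.98 ± 0.16 and -0.92 ± 0.10, edgeR adjusted p = 0.000168 and 4.61e-06). The windows are chr16:23678639-23678888 and chr11:62123761-62124010, both on the plus strand, and capitals mark TTTGAA.
PLK1: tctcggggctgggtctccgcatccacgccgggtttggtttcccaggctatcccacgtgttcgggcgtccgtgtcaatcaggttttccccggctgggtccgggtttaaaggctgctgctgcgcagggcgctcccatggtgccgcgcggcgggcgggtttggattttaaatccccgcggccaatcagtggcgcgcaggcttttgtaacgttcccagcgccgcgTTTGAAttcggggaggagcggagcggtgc
INCENP: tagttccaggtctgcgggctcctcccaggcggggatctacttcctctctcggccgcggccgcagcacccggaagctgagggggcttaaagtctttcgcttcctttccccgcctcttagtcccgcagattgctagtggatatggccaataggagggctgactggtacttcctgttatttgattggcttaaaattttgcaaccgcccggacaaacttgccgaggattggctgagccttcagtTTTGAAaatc

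Stress response genes, which cells use when amino acids run short or proteins misfold, moved in both directions. Of 41 tested 12 were higher and 20 lower, with a median of -0.22. ATF3, a stress-induced factor, read 53.5 and 50.9 CPM in the siFOXA1 libraries, against 25 and 25.6 CPM in the siControl libraries. SLC7A5, a carrier of large amino acids, read 3.92 and 5.39 CPM in the siFOXA1 libraries, against 13.7 and 12 CPM in the siControl libraries. SEL1L, which helps export misfolded proteins for degradation, read 122 and 129 CPM in the siFOXA1 libraries, against 305 and 283 CPM in the siControl libraries. ATF3 was higher and the other two were lower in both siFOXA1 libraries (1.05 ± 0.09, -1.47 ± 0.14 and -1.23 ± 0.06, edgeR adjusted p = 5.67e-07, 1.3e-06 and 3.34e-09). ATF4, the factor at the head of the amino acid response, was slightly lower, at 207 and 208 CPM in the siFOXA1 libraries, against 237 and 249 CPM in the siControl libraries (-0.23 ± 0.06, edgeR adjusted p = 0.00494), and lost its call without siFOXA1 library 1 (edgeR adjusted p = 0.0571). DDIT3 (CHOP), a factor of prolonged stress chosen after its values were seen, was not called, at 41.8 and 38.4 CPM in the siFOXA1 libraries, against 31.5 and 36.4 CPM in the siControl libraries. Of 20 tRNA synthetases 3 were higher and 4 lower, with a median of 0.0179.

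The amino acid response element TGATGNAAN, bound by ATF4 with its partners, stood in 3.18% of all promoters in the table. It stood in 4 of the 37 matched stress response promoters, and again no share of the list is read. ATF3 and ASNS, the asparagine synthetase, were the 2 called members with the largest changes that held it. ASNS changed little, at 67.1 and 69.9 CPM in the siFOXA1 libraries, against 76.6 and 83.5 CPM in the siControl libraries (-0.22 ± 0.08, edgeR adjusted p = 0.0304), and its call was lost without siFOXA1 library 1, without siFOXA1 library 2 or without siControl library 2. The windows are chr1:212565157-212565406 on the plus strand for ATF3 and chr7:97872409-97872658 on the minus strand for ASNS, each at the first of 2 starts listed, with the element in capitals.
ATF3: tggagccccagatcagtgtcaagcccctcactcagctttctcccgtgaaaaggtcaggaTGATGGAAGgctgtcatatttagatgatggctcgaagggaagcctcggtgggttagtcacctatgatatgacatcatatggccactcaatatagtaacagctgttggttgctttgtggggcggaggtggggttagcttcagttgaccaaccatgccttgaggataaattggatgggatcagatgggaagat
ASNS: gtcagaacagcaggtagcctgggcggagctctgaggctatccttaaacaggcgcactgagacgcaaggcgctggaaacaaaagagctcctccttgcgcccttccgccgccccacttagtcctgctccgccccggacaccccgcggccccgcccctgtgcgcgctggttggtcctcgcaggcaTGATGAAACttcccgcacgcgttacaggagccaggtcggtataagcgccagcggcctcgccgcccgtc

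CREB1 was lower in these cells, as given above, so its family and targets were counted too. Of 21 CREB and ATF family genes and co-activators, 6 were higher and 9 lower, the higher count being 3 with DESeq2. CREB3L2, a membrane-bound relative, was lower, at 18.2 and 19.9 CPM in the siFOXA1 libraries, against 51.2 and 45.6 CPM in the siControl libraries (-1.35 ± 0.09, edgeR adjusted p = 4.56e-08). Of 31 genes known to respond to CREB and cyclic AMP, 11 were higher and 8 lower, with a median of 0.16. EGR1, an immediate early factor, read 6.2 and 8.07 CPM in the siFOXA1 libraries, against 2.38 and 1.92 CPM in the siControl libraries (1.7 ± 0.24, edgeR adjusted p = 4.76e-05). The cyclic AMP response element TGACGTCA stood in 1.77% of all promoters in the table.

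Of 27 genes of fatty acid synthesis 11 were lower and 8 higher, with a median of -0.19. These are 40.7% and 29.6%, against 25.5% and 24.4% over all genes. ACACA, the carboxylase that commits carbon to fatty acids, read 202 and 252 CPM in the siFOXA1 libraries, against 612 and 512 CPM in the siControl libraries. FADS2, a desaturase of polyunsaturated fatty acids, read 298 and 346 CPM in the siFOXA1 libraries, against 897 and 865 CPM in the siControl libraries. Both fell (-1.31 ± 0.11 and -1.45 ± 0.10, edgeR adjusted p = 4.88e-07 and 6.91e-08). Of 32 genes of cholesterol synthesis and uptake 8 were higher and 9 lower, with a median of -0.0495. These shares, 25% and 28.1%, are near the 24.4% and 25.5% over all genes, so nothing is read from them. ABCA1, which exports cholesterol, fell, at 4.17 and 5.16 CPM in the siFOXA1 libraries, against 17.9 and 17.9 CPM in the siControl libraries, and CYP51A1, a demethylase of the synthesis pathway, rose, at 238 and 249 CPM in the siFOXA1 libraries, against 127 and 132 CPM in the siControl libraries (-1.93 ± 0.12 and 0.91 ± 0.07, edgeR adjusted p = 2.36e-08 and 9.72e-08). ABCG1, another exporter in the list, rose, at 60.8 and 62 CPM in the siFOXA1 libraries, against 33.4 and 30.2 CPM in the siControl libraries (0.94 ± 0.08, edgeR adjusted p = 3.26e-07).

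Of 36 hypoxia and glycolysis genes 14 were higher and 7 lower, with a median of 0.061. The higher count was 5 without siFOXA1 library 1 and 8 without siControl library 2. HIF1A, the oxygen-sensitive factor, was not called, at 266 and 258 CPM in the siFOXA1 libraries, against 272 and 277 CPM in the siControl libraries. ADM, a vessel-dilating peptide induced by low oxygen, fell, at 1.98 and 2.6 CPM in the siFOXA1 libraries, against 12.8 and 14.8 CPM in the siControl libraries (-2.57 ± 0.18, edgeR adjusted p = 8.45e-08). Of 16 polyamine and ornithine genes 4 were higher and 6 lower, with a median of -0.17. ABP1, a diamine oxidase that breaks down putrescine, had the largest change of the list, at 100.1 and 101 CPM in the siFOXA1 libraries, against 22.8 and 16.8 CPM in the siControl libraries (2.31 ± 0.11, edgeR adjusted p = 3.1e-09). OAZ1, the antizyme that restrains polyamine synthesis, fell, at 317 and 328 CPM in the siFOXA1 libraries, against 825 and 707 CPM in the siControl libraries, and ARG2, an arginase, fell, at 58.2 and 58.6 CPM in the siFOXA1 libraries, against 187 and 171 CPM in the siControl libraries (-1.25 ± 0.08 and -1.62 ± 0.09, edgeR adjusted p = 3.94e-08 and 6.36e-09).

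Autophagy and lysosome genes leaned higher, 15 of 34 against 3 lower, with a median of 0.17. CTSL1, the lysosomal protease cathepsin L, read 497 and 433 CPM in the siFOXA1 libraries, against 54.5 and 54.1 CPM in the siControl libraries. It was well above siControl in both siFOXA1 libraries, a log2 fold change of 3.1 ± 0.08 (edgeR adjusted p = 8.24e-12). SQSTM1 (p62), an autophagy receptor, read 1619 and 1523 CPM in the siFOXA1 libraries, against 935 and 879.7 CPM in the siControl libraries (0.79 ± 0.11, edgeR adjusted p = 5.12e-05). Histone and chromatin regulators leaned lower, 20 of 35 against 4 higher, with a median of -0.26; 13 were lower without siFOXA1 library 1, and 2 higher without siFOXA1 library 2 or without siControl library 1. TET1, which oxidises methylated cytosine, read 1.39 and 2.14 CPM in the siFOXA1 libraries, against 5.85 and 5.57 CPM in the siControl libraries. It fell (-1.68 ± 0.20, edgeR adjusted p = 1.13e-05). Of 55 ribosomal protein genes 1 was higher and 14 lower, with a median of -0.08. The share lower, 25.5%, is that over all genes, and the share higher was 1.82% against 24.4%. Without siFOXA1 library 1, 7 were lower. The number higher was 0 without siFOXA1 library 2 and 3 without siControl library 1. RPLP1, a stalk protein of the large subunit, had the largest fall, at 395 and 421 CPM in the siFOXA1 libraries, against 1213 and 1108 CPM in the siControl libraries (-1.51 ± 0.07, edgeR adjusted p = 3.13e-09). Ribosomal genes have many processed copies, so their counts are uncertain.

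Of 18 blood and endothelial genes 8 passed the filter, with a summed level of 21.3 and 21.7 CPM in the siFOXA1 libraries, against 49.8 and 41.2 CPM in the siControl libraries. Most of that sum came from CD68 and VWF; HBA1, HBA2, CD3E and MPO had no read in any of the 4 libraries. VWF, the von Willebrand factor gene, fell, at 2.61 and 2.37 CPM in the siFOXA1 libraries, against 30.6 and 27.7 CPM in the siControl libraries (-3.55 ± 0.23, edgeR adjusted p = 3.8e-08). Another 3 blood genes were called lower on reads of siControl library 1: CSF3R had 1 and 2 reads in the siFOXA1 libraries and 76 and 0 in siControl, S100A8 had 0 and 1 against 20 and 0, and PTPRC had 0 and 0 against 9 and 0. In abl too, CSF3R was higher in siControl library 1, at 2.42 CPM against 0.223 CPM in siControl library 2, and the source of these reads was not tested. In all 5 blood genes were lower and 1 higher, but 1 was lower without siControl library 1 or without either siFOXA1 library. The part of these blood and endothelial markers in the other results was not tested. Of 12 fibroblast genes 6 passed the filter, 2 higher and 2 lower (1 lower whichever of the 4 libraries was left out), with a summed level of 114.9 and 97.6 CPM in the siFOXA1 libraries, against 68.6 and 78.7 CPM in the siControl libraries. Most of that sum came from COL1A1, a fibrillar collagen chain, at 96.2 and 81.2 CPM in the siFOXA1 libraries, against 53.4 and 61.6 CPM in the siControl libraries (0.63 ± 0.12, edgeR adjusted p = 0.000473). ACTA2, a smooth muscle actin, was higher too, at 10.8 and 8.22 CPM in the siFOXA1 libraries, against 3 and 4.04 CPM in the siControl libraries (1.47 ± 0.19, edgeR adjusted p = 2.78e-05). COL1A2 and THY1 had no read in any of the 4 libraries, and the part of the fibroblast genes in the other results was not tested.

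Set beside the abl subline, the LNCaP response to siFOXA1 differed in size for many genes. The difference of the 2 effects, LNCaP minus abl, was tested in the same fit and called for 5068 genes, 32.6% of those tested, 14.7% with a higher and 17.9% with a lower log2 effect in LNCaP. THBS1 had the largest difference among well-measured genes: in abl it read 1.33 and 0.605 CPM in the siFOXA1 libraries, against 24.9 and 25.9 CPM in the siControl libraries, the opposite direction to LNCaP (difference 9.13 ± 0.29, edgeR adjusted p = 3.28e-10). ACPP fell less in abl, at 133 and 89.9 CPM in the siFOXA1 libraries, against 178 and 168 CPM in the siControl libraries (difference -3.73 ± 0.20, edgeR adjusted p = 1.97e-08). PLK2, a stress-induced kinase, fell in LNCaP, at 44.5 and 43.5 CPM in the siFOXA1 libraries, against 141 and 156 CPM in the siControl libraries, and was higher in abl, at 16.5 and 13.9 CPM in the siFOXA1 libraries, against 4.33 and 4.23 CPM in the siControl libraries (difference -3.57 ± 0.17, edgeR adjusted p = 9.09e-09).

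Lists differed between the lines as follows. The effect in LNCaP was the higher one for 43 of 45 mitosis genes (median difference 1.5), 40 of 41 stress response genes (1.84) and 32 of 44 interferon response genes (1.44), with none the lower one (1 stress gene lower without siControl library 2). The median log2 effect of the mitosis list was -0.68 in LNCaP and -2.24 in abl, of the stress list -0.22 in LNCaP and -1.86 in abl, and of the interferon list 3.26 in LNCaP and 1.75 in abl. For ribosomal proteins 45 of 55 genes had the lower effect in LNCaP (median difference -0.44), and for cholesterol synthesis 18 of 32. FOXA1 itself fell more in LNCaP, with 196 and 229 CPM in abl siFOXA1 cells, against 556 and 504 CPM in abl siControl cells (difference -0.49 ± 0.12, edgeR adjusted p = 0.00584), and its part in these differences was not tested.

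**Figure D5:**
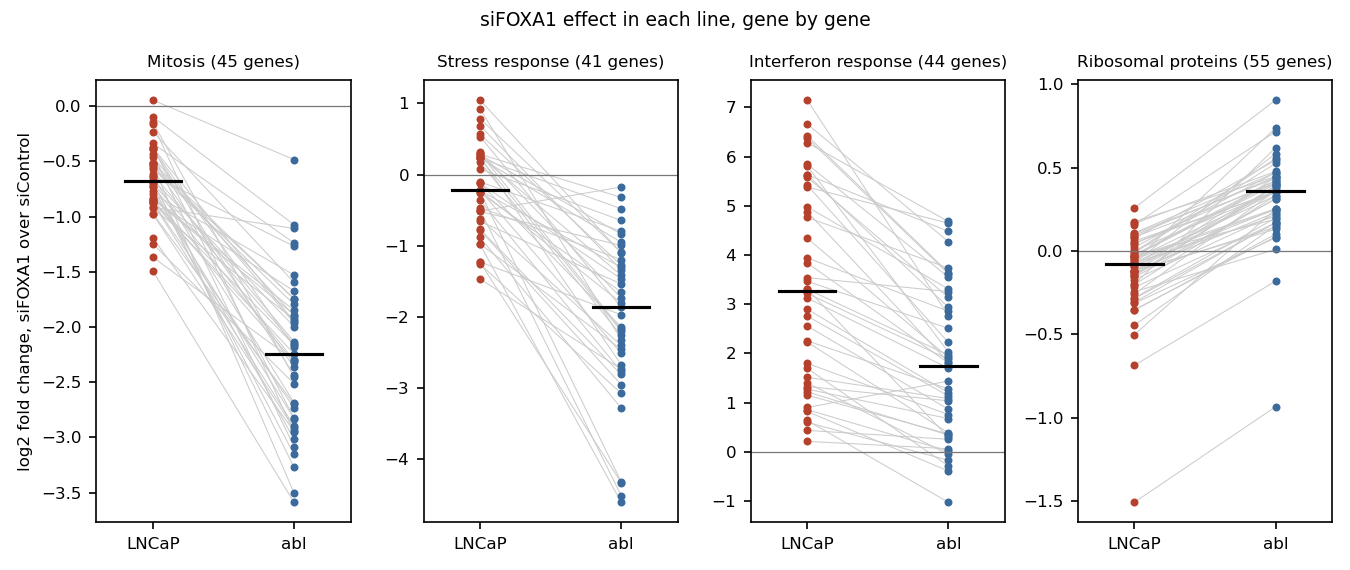
Log2 fold change, siFOXA1 over siControl, of each tested gene of 4 lists in LNCaP and in abl, with a line joining the 2 values of a gene and black bars at the medians; each panel has its own axis. Mitosis medians are -0.68 in LNCaP and -2.24 in abl, stress medians -0.22 and -1.86, interferon medians 3.26 and 1.75, and ribosomal protein medians -0.08 and 0.36.

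In LNCaP, siFOXA1 and siCREB1 cells were compared directly, since both knockdowns share the siControl libraries. This contrast called 6691 genes, 43.0% of those tested, 22.5% higher and 20.6% lower in siFOXA1 cells. DAPK1 was the largest rise among well-measured genes, with 364 and 345 CPM in siFOXA1 cells, against 0.515 and 0.584 CPM in siCREB1 cells (log2 fold change over siCREB1 9.32 ± 0.16, edgeR adjusted p = 2.17e-13). IFIT1 had 200.1 and 201 CPM in siFOXA1 cells, against 42.3 and 35.3 CPM in siCREB1 cells (log2 fold change over siCREB1 2.37 ± 0.25, edgeR adjusted p = 3.67e-06), and 40 of 44 interferon response genes were higher in siFOXA1 than in siCREB1 cells, none lower. Some interferon response genes also stood higher in siCREB1 than in siControl cells, a contrast that was not tested. IFIT1 had 5.02 and 2.88 CPM in siControl cells. IFI27 had 4.64 and 3.83 CPM in siCREB1 cells, against 1.08 and 0.32 CPM in siControl cells. EPSTI1, near the floor, did not, at 0.11 and 0.073 CPM in siCREB1 cells, against 0.144 and 0.192 CPM in siControl cells. CENPF had 16.7 and 17.6 CPM in siFOXA1 cells, against 3.24 and 4.85 CPM in siCREB1 cells (log2 fold change over siCREB1 2.08 ± 0.19, edgeR adjusted p = 1.03e-06), and 43 of 45 mitosis genes were higher in siFOXA1 than in siCREB1 cells, none lower. Other genes given above read much the same in both knockdowns, and those named next were picked for this. In siCREB1 cells ADM had 2.5 and 2.63 CPM, and ID3 had 44.3 and 22.3 CPM. Neither was called between the knockdowns (edgeR adjusted p = 0.596 and 0.749). ABCA1 was lower still in siCREB1 cells, at 3.17 and 3.32 CPM.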

How the data were processed

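RNA was read on Illumina HiSeq from TruSeq RNA v2 libraries, per the labels' protocols. The deposited table holds raw counts per gene made by the authors for 23230 genes in 12 libraries. The submitters' processing notes name hg19, TopHat2 2.0.8, HTSeq 0.5.3p9 and edgeR 3.0.6. The authors' deposited comparison table gives a log2 fold change and an FDR (adjusted p-value) per gene, used here only to set its list beside the calls. A further 5 lines naming no gene were left out: reads in no feature were 54.8% to 56.9% and ambiguous reads 0.774% to 0.818% in the 4 libraries.

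From the counts, edgeR 4.0.16 (R 4.3.3) with TMM scaling and its default expression filter kept 15550 genes. A quasi-likelihood fit with 6 group means over 12 libraries left 6 residual degrees of freedom. P-values were adjusted over all genes by Benjamini-Hochberg at 0.05. The contrasts were siFOXA1 over siControl in LNCaP, that effect in LNCaP minus abl, and siFOXA1 over siCREB1 in LNCaP. The fit was tested on simulated data. Bounds use a floor of 3 counts, and counting intervals are 95% and cover counting error only. Alternatives were RLE and upper-quartile scaling, DESeq2 1.42.0, other filters, fewer libraries in the fit, a replicate block, and leaving out each of the 4 LNCaP siFOXA1 and siControl libraries.

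Members and lists were chosen with earlier results of these data known. Named genes were FOXA1, CREB1, a fixed set of prostate and cell cycle genes, the 12 largest called rises and falls with a mean of at least 8 CPM and no overlap, the 4 largest called changes in each list, and the 5 largest each way in the other contrasts; the promoter genes and those so marked were chosen after their values were seen. Promoter sequences are from RefSeq, and 11543 of the tested genes matched one. Binding peaks were not analysed here, and some genes that the rule names are not reported here.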

Additional observations from a re-analysis of the deposited data

Results flagged for a closer look

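The effect of siFOXA1 differed between LNCaP and abl, by the test of the difference itself, for 5068 genes. Differences below are LNCaP minus abl on the log2 scale. They were 9.13 for THBS1, 4.99 for GRIN3A, 4.89 for MSN, 4.4 for CD55 and 4.11 for TNC. They were -3.91 for OR51E1, -3.9 for ABP1, -3.73 for ACPP, -3.64 for GSTA1 and -3.57 for PLK2. GRIN3A, a glutamate receptor subunit, had 38.6 and 35.1 CPM in siFOXA1 cells, against 1.37 and 1.92 CPM in siControl cells of LNCaP, and in abl 0.827 and 1.25 CPM in siFOXA1 cells, against 1.53 and 1.11 CPM in siControl cells. MSN, the membrane linker moesin, was at 106.5 and 110.1 CPM in siFOXA1 cells, against 95.9 and 98.1 CPM in siControl cells of LNCaP, and its difference rests on abl levels below 1 CPM. CD55, a shield against complement, was 5.02 without siControl library 1. ABP1, a diamine oxidase, was higher under siFOXA1 in both lines, by more in abl.

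By list, the siFOXA1 effect was the higher one in LNCaP for 43 mitosis, 40 stress response and 32 interferon response genes, and the lower one for 45 ribosomal protein genes.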

How the results depend on the processing

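The number of genes called for siFOXA1 over siControl in LNCaP was 7748, and 5817 to 7051 when 1 of the 4 LNCaP siFOXA1 and siControl libraries was left out. It was 6630 with DESeq2, 6820 with only the 4 libraries and 7335 with a filter of 50 counts in 2 libraries. The share of higher calls stayed between 48.5% and 49.5% in the scaling, filter and library-set alternatives. Against 48.9% in the reported fit, it was 52.2% and 52% without siFOXA1 library 1 or 2, 52.1% without siControl library 1 and 49% without siControl library 2. No count of calls in the 3 contrasts moved by over 1.5 times in the alternatives run, in which no abl or siCREB1 library was left out singly. With a replicate block by column number 7792 genes were called; same-numbered siFOXA1 and siControl deviations correlated at -0.0732. Over all 15 pairs of groups that correlation ran between -0.0732 and 0.32, the highest being between the siControl groups of LNCaP and abl. It was not above 0.1 in every pair, so the numbers were not taken as pairing. The sign of CCND1, which was not called, turned to 0.003113 with RLE scaling, 0.00316 with DESeq2 and 0.006223 with only the 4 libraries. Leaving out 1 of the 4 libraries turned the sign of these genes, whose log2 fold changes ran between -0.04163 and 0.0625 for CCND1, -5.397 and 3.611 for CSF3R, -0.4584 and 1.055 for EPSTI1, -0.03026 and 0.1837 for FKBP5, -0.1265 and 0.05357 for HOXB13, -0.2026 and 0.298 for KLK3, -0.04244 and 0.34 for MYC, -6.381 and 2.245 for S100A8, and -2.158 and 0.08069 for SLC2A3. The causes were not tested. Depth limits the genes with few reads.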
